A study of Homo sapiens with 4 samples.

Results

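Histone lysine methyltransferases transfer methyl groups from S-adenosylmethionine to lysines of the histone tails, and lysine demethylases take them off again. H3K4 and H3K36 methylation mark active promoters and transcribed gene bodies, whereas H3K9 and H3K27 methylation mark silenced chromatin. The KDM1 demethylases use flavin, and the JmjC demethylases use oxygen, iron and 2-oxoglutarate, so their activity is known to depend on oxygen and metabolite supply. In glioma, EZH2 and the lysine demethylases have been studied widely as regulators of stem-like states.

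The 63 genes described here were taken by symbol from the 15575 genes of a U251 RNA-seq count table: the KDM, KMT, SETD, SETDB, SUV39H, EHMT, EZH, SMYD and PRDM families with EED, SUZ12, NSD1, DOT1L, SETMAR, PHF2 and PHF8. All 63 passed the filter on low counts, as did 13172 genes in all. The rule itself uses symbols and no expression value. The PRDM, SMYD and SETD symbols include proteins whose histone methyltransferase activity is weak, absent or unsettled, so the list is one of gene families rather than of proven enzymes.

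U251 is an established human glioblastoma cell line. The study asked what the loss of PRMT3, an arginine methyltransferase of the cytoplasm, does to glioblastoma cells. Libraries came from cells given a lentiviral control shRNA (Ctrl, titled pGreen Ctrl, 2 libraries) or an shRNA against PRMT3 (PRMT3-KD, 2 libraries), all in the U251 background and, per the description of the expression data, 72 h into the knockdown. Which hairpin was used is not given in the sources used here, so hairpin and knockdown cannot be told apart, and nothing says whether the 2 libraries of a group are separate cultures. The p-values therefore measure the spread between these libraries, which may be technical. An exact permutation test of 2 against 2 libraries cannot go below p = 0.333, so single genes were tested by edgeR's quasi-likelihood fit across all genes, with Benjamini-Hochberg adjustment over the 13172 genes; called means an adjusted p under 0.05. Levels are given as CPM, the count of a gene scaled to library size after TMM scaling, and levels of different genes are set side by side only as CPM per kb of the canonical transcript. Gene positions are the GENCODE 44 gene bounds on GRCh37 (hg19), the build of the alignment.

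The libraries held between 24804250 and 29756313 counts, and the 63 genes took between 0.348% and 0.368% of them. PRMT3 was at 19.3 and 19.5 CPM in the Ctrl libraries and 3.03 and 1.58 CPM in the PRMT3-KD libraries, a log2 fold change of -3.08 ± 0.314 (SE, adjusted p = 0.0177, edgeR), and HIF1A was at 738 and 729 CPM in the Ctrl libraries and 196 and 289 CPM in the PRMT3-KD libraries, a log2 fold change of -1.60 ± 0.203 (adjusted p = 0.0204, edgeR). The glial and mesenchymal markers VIM, NES, SOX2, CD44 and EGFR were at 132 CPM or more in every library, and the oligodendrocyte markers MBP and MOG had at most 13 counts. GFAP was at 13.1 and 14.3 CPM in Ctrl and 1.26 and 5.39 CPM in PRMT3-KD. Its log2 fold change was -2.03 and was not called (adjusted p = 0.0958, edgeR). The Ctrl libraries differed from each other little more than by counting noise (chi-square per degree of freedom 1.42 over 13074 genes), while the PRMT3-KD libraries stood further apart (66.4 over 13066 genes). Among the 63 genes the median absolute log2 difference was 0.0419 between the Ctrl libraries and 0.174 between the PRMT3-KD libraries, against 0.0532 and 0.238 over all tested genes.

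Promoter sequence is shown first for 4 genes that recur below: the paralogs EHMT1 and EHMT2, which moved in opposite directions, EZH2, and KDM7A, which had the largest increase among the 63. Each window runs from 250 bases before to 50 bases after the RefSeq start on GRCh38.p14, written 5′ to 3′ on the strand of the gene. Capitals mark matches, on either strand, to the E2F letters TTTCCCGC, TTTCGCGC, TTTGCCGC or TTTGGCGC, the CHR letters TTTGAA, the box CCAAT and the letters ACGTG. Matches on the other strand are shown as the reverse complement. ACGTG is a form of the hypoxia response core, called the hypoxia core below, and other forms of it were not searched. The windows are chr9:137618755-137619054 (plus strand) for EHMT1, chr6:31897649-31897948 (minus strand) for EHMT2, chr7:148884242-148884541 (minus strand) for EZH2 and chr7:140176934-140177233 (minus strand) for KDM7A.
EHMT1: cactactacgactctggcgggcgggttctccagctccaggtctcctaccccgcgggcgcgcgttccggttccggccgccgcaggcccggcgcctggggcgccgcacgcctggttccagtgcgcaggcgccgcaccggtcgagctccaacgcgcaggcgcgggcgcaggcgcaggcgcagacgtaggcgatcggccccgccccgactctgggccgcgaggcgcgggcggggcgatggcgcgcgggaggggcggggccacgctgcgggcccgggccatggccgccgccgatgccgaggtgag
EHMT2: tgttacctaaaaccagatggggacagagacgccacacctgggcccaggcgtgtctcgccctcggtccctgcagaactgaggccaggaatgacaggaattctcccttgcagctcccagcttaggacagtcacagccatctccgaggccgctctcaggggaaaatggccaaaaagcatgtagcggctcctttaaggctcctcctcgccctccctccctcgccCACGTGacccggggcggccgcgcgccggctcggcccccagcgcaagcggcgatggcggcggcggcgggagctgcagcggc
EZH2: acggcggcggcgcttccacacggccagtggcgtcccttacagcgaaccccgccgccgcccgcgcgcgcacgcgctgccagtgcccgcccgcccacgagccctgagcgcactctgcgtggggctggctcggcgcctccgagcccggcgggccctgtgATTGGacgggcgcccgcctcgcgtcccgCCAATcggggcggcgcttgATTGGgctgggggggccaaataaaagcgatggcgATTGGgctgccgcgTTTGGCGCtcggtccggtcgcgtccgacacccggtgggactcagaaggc
KDM7A: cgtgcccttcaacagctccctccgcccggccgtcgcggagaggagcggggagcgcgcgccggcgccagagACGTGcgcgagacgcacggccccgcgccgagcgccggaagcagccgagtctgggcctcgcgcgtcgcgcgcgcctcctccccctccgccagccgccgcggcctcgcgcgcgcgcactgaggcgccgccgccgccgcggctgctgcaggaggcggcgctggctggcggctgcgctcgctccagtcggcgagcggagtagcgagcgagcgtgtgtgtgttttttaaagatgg

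The EZH2 window held 1 E2F match, at bases 252 to 259, and 4 CCAAT boxes between bases 157 and 242. The EHMT2 window held the hypoxia core on both strands at bases 221 to 226, where the letters form the palindromic E-box CACGTG, and the KDM7A window held it at bases 71 to 75. The EHMT1 window held none of the searched letters. Of the 63 genes, 58 had a RefSeq window. An E2F match was present in 5 of the 58 (8.62%, against 5.04% of 11352 windows of genes in the table), CHR letters in 7 (12.1% against 10.3%), a CCAAT box in 21 (36.2% against 36.5%) and the hypoxia core in 18 (31.0% against 25.6%). The median GC content was 66.2% against 64.7%. These are matches of letters and not measured binding.

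Across the 63 genes, 13 were called (20.6%), against 17.3% of all tested genes. Of these, 7 rose (11.1%, against 8.39% of all tested genes): KDM7A, KDM5B, KDM6B, SETD7, KMT2C, KDM1B and EHMT1. The other 6 fell (9.52%, against 8.91%): PRDM16, EHMT2, PRDM15, KDM2B, KMT2E and SMYD2. The call together with a change over 1.5-fold was met by 7 genes (11.1%, against 10.9%), 5 higher and 2 lower. Both PRMT3-KD libraries lay outside the range of the Ctrl libraries for 45 genes (71.4%, against 67.1%), 20 above and 25 below. The family as a whole was thus called about as often as any other gene of the table. The median log2 fold change was -0.03 over the 63 genes and 0.01 over all tested genes, with 31 of the 63 above 0 and 32 below.

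The counts depended on which libraries entered the fit. Without either Ctrl library no member was called by edgeR (10 and 8 members at an unadjusted p under 0.05), and no gene of the whole table was called (1842 and 1868 genes at an unadjusted p under 0.05). Without PRMT3-KD library 1 or 2 the spread came from the Ctrl pair alone, and 43 and 41 members were called, along with 65.9% and 65.6% of all genes. The 13 called members kept their direction in the main fit and in all 12 alternatives. Their groups did not overlap and the alternatives used the same counts, so the direction could hardly turn and its constancy adds no support. Of the 13, 8 (KDM7A, SETD7, EHMT2, KDM5B, KDM6B, PRDM16, KDM1B and KMT2C) were called in each of the 8 alternatives that kept all 4 libraries.

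**Figure D1:**
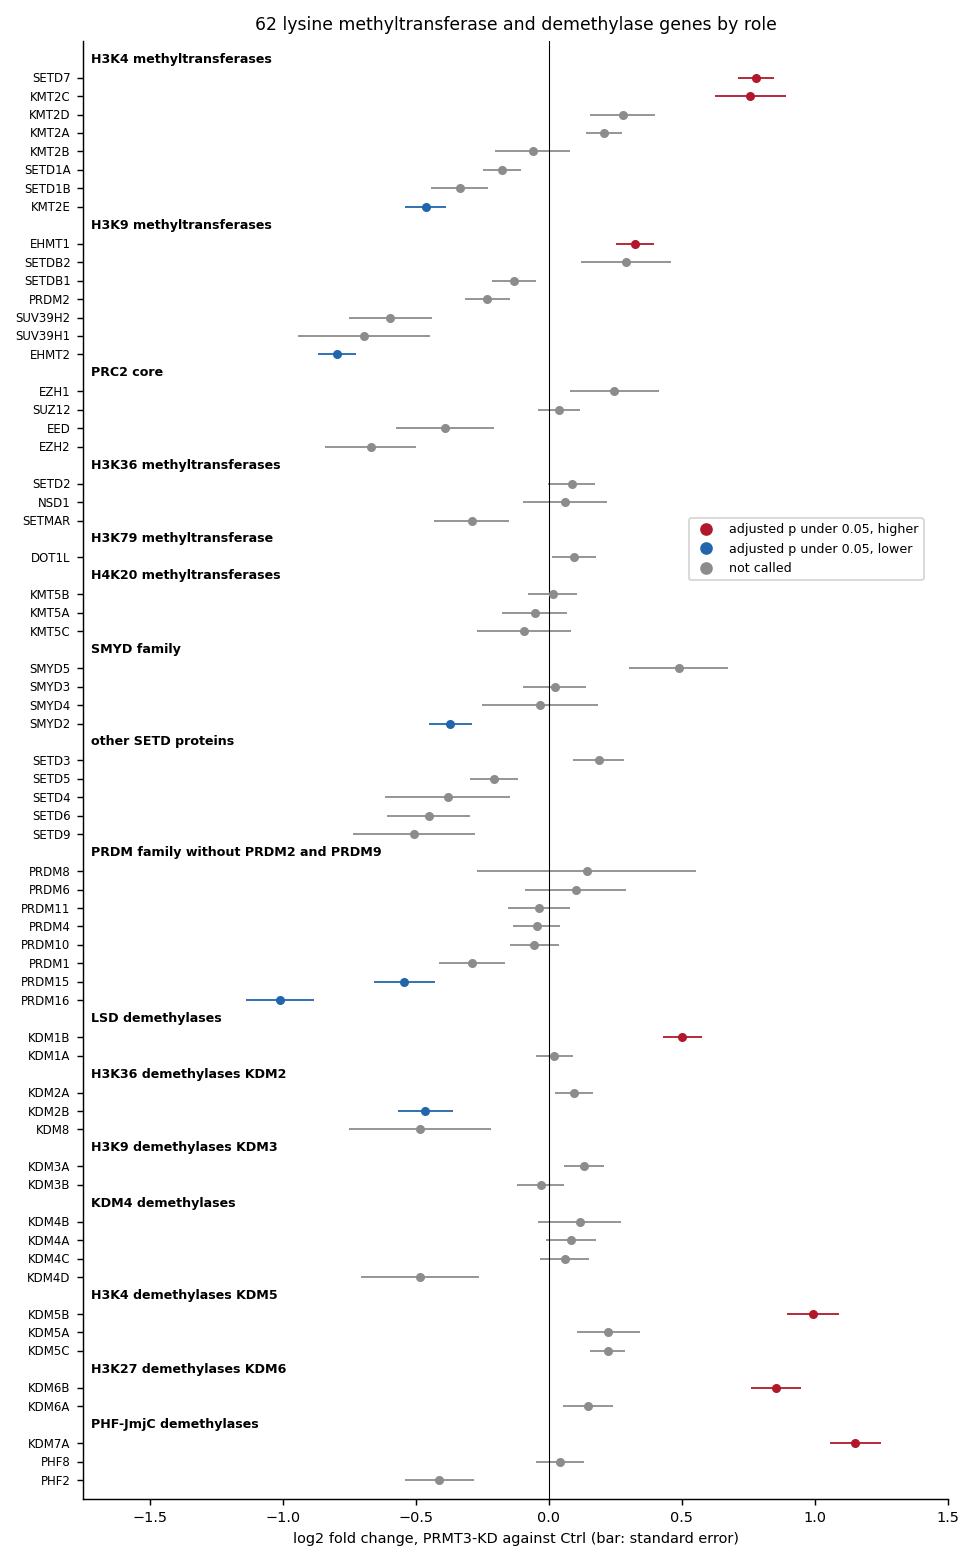
Log2 fold change of 62 of the 63 genes in PRMT3-KD against Ctrl (points, with the standard error as bars), grouped by role, with called genes in red (higher) and blue (lower). The called genes run from -1.01 for PRDM16 to 1.15 for KDM7A, and both directions occur among the genes grouped under H3K4 and under H3K9.

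Among the demethylases, 4 of 19 genes rose, 1 fell and 14 did not pass the test; 14 of the 19 log2 fold changes were above 0, with a median of 0.10. Among the other 44 genes 3 rose and 5 fell, and the median was -0.06. Of all 13172 tested genes 8.39% rose and 8.91% fell. The difference between these groups of genes was not tested. KDM7A (chr7:139784546-139876783) removes methyl groups from H3K9 and H3K27. It was at 13.4 and 13.5 CPM in the Ctrl libraries and 28.9 and 30.7 CPM in the PRMT3-KD libraries, a log2 fold change of 1.15 ± 0.0949 (SE, adjusted p = 0.0142, edgeR). Each PRMT3-KD library was above each Ctrl library by more than the gap within either pair. The other PHF-JmjC genes did not follow it: PHF8 was at 29.1 and 29.0 CPM in Ctrl and 31.0 and 28.8 CPM in PRMT3-KD, with overlapping groups, and PHF2 was at 55.2 and 54.2 CPM in Ctrl and 36.6 and 45.6 CPM in PRMT3-KD, a log2 fold change of -0.41 (adjusted p = 0.0956, edgeR).

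KDM5B (chr1:202693623-202777615) takes methyl groups off H3K4. It was at 42.9 and 44.8 CPM in the Ctrl libraries and 81.6 and 93.0 CPM in the PRMT3-KD libraries, a log2 fold change of 0.99 ± 0.0974 (SE, adjusted p = 0.0172, edgeR). Both PRMT3-KD libraries were far above the Ctrl pair, with library 2 the higher. Its paralog KDM5C was at 115 and 116 CPM in Ctrl and 133 and 136 CPM in PRMT3-KD, and KDM5A at 59.0 and 63.9 CPM in Ctrl and 65.2 and 78.4 CPM in PRMT3-KD. Their log2 fold changes were 0.22 and 0.22, and neither was called (adjusted p = 0.0910 and 0.246, edgeR).

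KDM6B (chr17:7737535-7758114), an inducible H3K27 demethylase, was at 20.1 and 21.1 CPM in the Ctrl libraries and 38.7 and 35.9 CPM in the PRMT3-KD libraries, a log2 fold change of 0.86 ± 0.0942 (SE, adjusted p = 0.0188, edgeR). KDM6A, which has the same substrate, was at 20.1 and 19.3 CPM in Ctrl and 21.5 and 22.1 CPM in PRMT3-KD, a log2 fold change of 0.15 (adjusted p = 0.316, edgeR). The groups did not overlap for either gene, but the KDM6B difference was the larger by far relative to its error. KDM1B (chr6:18155560-18224085), a flavin-dependent H3K4 demethylase, was at 49.8 and 47.9 CPM in the Ctrl libraries and 69.8 and 68.5 CPM in the PRMT3-KD libraries, a log2 fold change of 0.50 ± 0.0739 (adjusted p = 0.0245, edgeR). Its paralog KDM1A, the catalytic subunit of the CoREST complex, was at 161 and 154 CPM in Ctrl and 158 and 162 CPM in PRMT3-KD, and its groups overlapped. KDM1A had the highest level per kb among the 63 genes in Ctrl, at 51.1 ± 1.60 CPM per kb (SD, n = 2).

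KDM2B (chr12:121866899-122018928), a CpG-island-binding H3K36 demethylase that also brings PRC1 to DNA, was the demethylase that fell. It was at 58.7 and 56.1 CPM in the Ctrl libraries and 38.7 and 44.6 CPM in the PRMT3-KD libraries, a log2 fold change of -0.46 ± 0.103 (SE, adjusted p = 0.0493, edgeR). The groups did not overlap, but the call lay close to the threshold and was lost with DESeq2 size factors (adjusted p = 0.0525, edgeR) and upper-quartile factors (adjusted p = 0.0505). It was also lost with the filter of at least 1 count in any library and with the replicate block. Its exons share positions with RNF34 and KDM2B-DT, and counting by strand is not stated, so reads of these genes cannot be told apart from its own. KDM2A was at 99.6 and 95.7 CPM in Ctrl and 106 and 103 CPM in PRMT3-KD.

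HIF1A, whose level is given above, is known to induce KDM3A, KDM4B and KDM4C under low oxygen. No low-oxygen treatment is named for these libraries, and RNA counts do not measure HIF1A protein or its activity. The study reported lower HIF1A RNA in its U251 RNA-seq, and by qRT-PCR in patient-derived glioblastoma stem cells. It also reported lower HIF1A protein under hypoxia. These demethylases were picked after their values were seen. KDM3A was at 46.0 and 47.1 CPM in Ctrl and 51.6 and 50.4 CPM in PRMT3-KD, KDM4C at 19.9 and 19.7 CPM in Ctrl and 21.1 and 20.2 CPM in PRMT3-KD and KDM4B at 62.7 and 61.5 CPM in Ctrl and 57.7 and 76.8 CPM in PRMT3-KD. None of them passed the test by edgeR: the log2 difference was 0.13 for KDM3A (adjusted p = 0.275), 0.06 for KDM4C (adjusted p = 0.678) and 0.12 for KDM4B (adjusted p = 0.628). The PRMT3-KD libraries lay on both sides of the Ctrl pair for KDM4B. In the whole KDM3 and KDM4 groups, 0 of 6 genes were called by edgeR, DESeq2 or limma-voom, and 0 had an unadjusted p under 0.05. Over all 13172 tested genes these tools called 17.3%, 21.2% and 21.7%, and 4950 had an unadjusted p under 0.05.

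**Figure D2:**
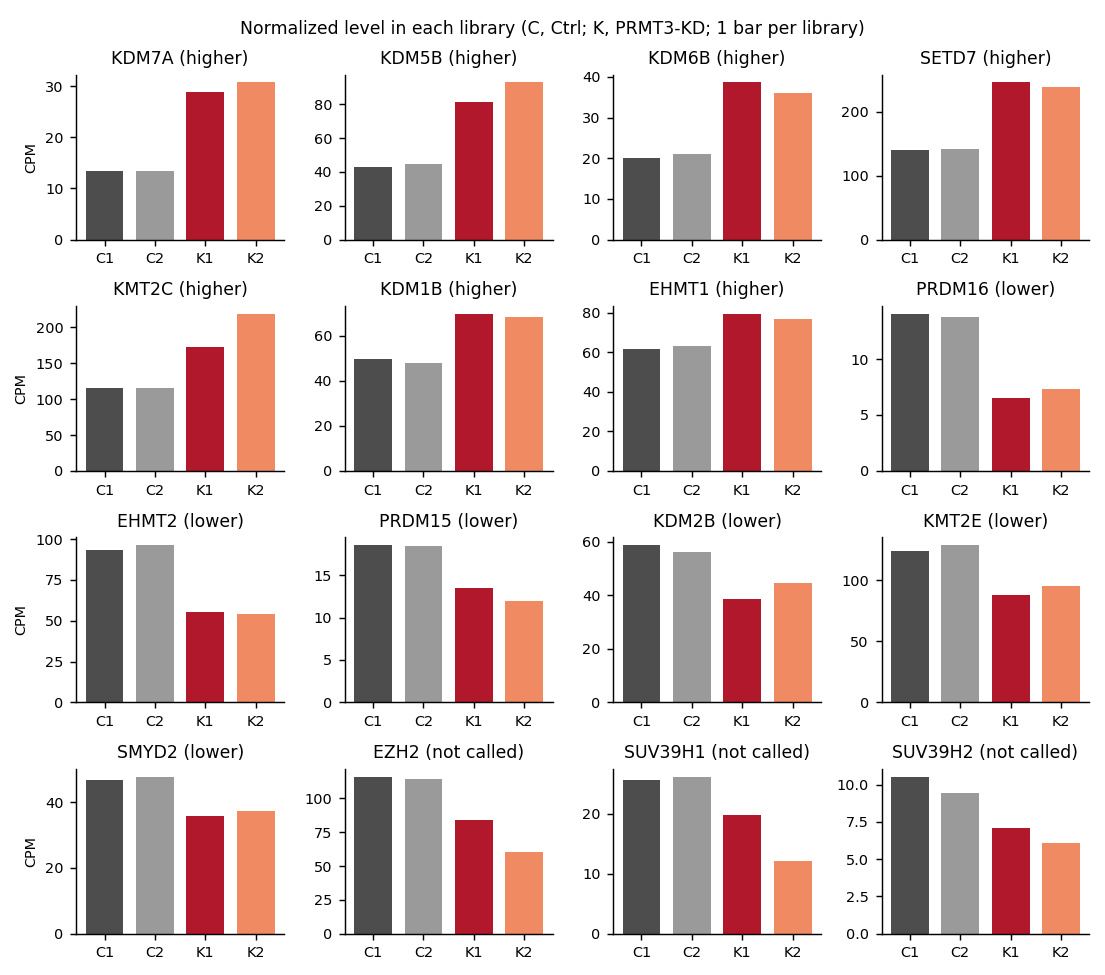
Normalized level (CPM, axes from 0) in each of the 4 libraries for the 13 called genes and for EZH2, SUV39H1 and SUV39H2, with 1 bar per library (C, Ctrl; K, PRMT3-KD). The PRMT3-KD libraries of most called genes lie close together, with KMT2C, at 173 and 219 CPM, the widest apart, while EZH2 and SUV39H1 are clearly lower in PRMT3-KD library 2 than in library 1.

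The H3K9 methyltransferases were divided. EHMT2 (G9a, chr6:31847536-31865475) and EHMT1 (GLP, chr9:140513444-140764468) form a heterodimer that writes H3K9 mono- and dimethylation. EHMT2 was at 93.5 and 96.3 CPM in the Ctrl libraries and 55.3 and 54.1 CPM in the PRMT3-KD libraries, a log2 fold change of -0.80 ± 0.0715 (SE, adjusted p = 0.0154, edgeR). EHMT1 was at 61.9 and 63.2 CPM in the Ctrl libraries and 79.5 and 77.1 CPM in the PRMT3-KD libraries, a log2 fold change of 0.32 ± 0.0716 (adjusted p = 0.0490, edgeR). The groups did not overlap for either gene and the directions were opposite. Per kb of transcript, EHMT2 made up 66.0% ± 0.143 of the summed level of the pair in Ctrl and 47.2% ± 0.158 in PRMT3-KD (SD, n = 2 each). EHMT1 lost its call in 5 of the 8 alternatives that kept all libraries, and exons of both genes share positions with other annotated genes.

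SUV39H1 and SUV39H2 write H3K9 trimethylation at pericentric heterochromatin. SUV39H1 was at 25.6 and 26.2 CPM in the Ctrl libraries and 19.8 and 12.2 CPM in the PRMT3-KD libraries, and SUV39H2 at 10.5 and 9.42 CPM in Ctrl and 7.12 and 6.09 CPM in PRMT3-KD. Their log2 fold changes were -0.69 ± 0.248 and -0.60 ± 0.157 (SE), both over 1.5-fold, and neither was called by edgeR (adjusted p = 0.121 and 0.0678). SUV39H1 passed the threshold with DESeq2 (adjusted p = 0.0450) and limma-voom (adjusted p = 0.0365). Exons of SUV39H1 and SUV39H2 share positions with other annotated genes, for SUV39H2 with DCLRE1C. Of the remaining genes of this role, SETDB1, SETDB2 and PRDM2 were not called.

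PRC2, which writes H3K27 methylation, did not move as a unit. Its main catalytic subunit EZH2 (chr7:148504349-148581413) was at 116 and 114 CPM in the Ctrl libraries and 84.0 and 60.6 CPM in the PRMT3-KD libraries, a log2 fold change of -0.67 ± 0.172 (SE) that missed the threshold (adjusted p = 0.0638, edgeR). The groups did not overlap, and PRMT3-KD library 2 was lower than library 1. EZH2 passed with DESeq2 (adjusted p = 0.00549) and limma-voom (adjusted p = 0.00959). The structural subunit EED was at 18.7 and 16.9 CPM in Ctrl and 15.7 and 11.5 CPM in PRMT3-KD, a log2 fold change of -0.39 (adjusted p = 0.204, edgeR), and SUZ12 was at 81.8 and 86.1 CPM in Ctrl and 89.2 and 83.2 CPM in PRMT3-KD, a log2 fold change of 0.04 (adjusted p = 0.762, edgeR). The alternative catalytic subunit EZH1 was at 31.2 and 31.9 CPM in Ctrl and 43.1 and 31.8 CPM in PRMT3-KD, a log2 fold change of 0.25 (adjusted p = 0.347, edgeR), and its groups overlapped. Per kb, EZH2 made up 86.4% ± 0.330 of the summed level of EZH1 and EZH2 in Ctrl and 77.1% ± 0.284 in PRMT3-KD (SD, n = 2 each), and this share was close within each pair although the EZH2 level differed between the PRMT3-KD libraries.

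Cell division genes were lower in the same libraries. The summed level of 12 division markers (among them MKI67, TOP2A and MCM6) was 2887 and 2877 CPM in Ctrl and 1767 and 1391 CPM in PRMT3-KD, with 6 of the 12 called lower (8.91% of all tested genes), none called higher (8.39% of all) and a median log2 fold change of -0.78. EZH2, SUV39H1 and EED had their lowest value in the same library as this sum, PRMT3-KD library 2. This was not particular to them: EHMT2, PRDM15, SETD1B and further members also had their lowest value there. PRDM16, KDM2B and KMT2E had theirs in PRMT3-KD library 1. The part of cell division in these levels was not tested.

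Of the 8 genes grouped under H3K4 methylation, 2 rose and 1 fell, beside 8.39% and 8.91% of all tested genes. SETD7 (chr4:140417095-140527853), which monomethylates H3K4 and several non-histone proteins, was at 140.2 and 142 CPM in the Ctrl libraries and 245 and 239 CPM in the PRMT3-KD libraries, a log2 fold change of 0.78 ± 0.0676 (SE, adjusted p = 0.0151, edgeR). KMT2C (chr7:151832007-152133729), a catalytic subunit of the enhancer COMPASS complex, was at 116 and 116 CPM in the Ctrl libraries and 173 and 219 CPM in the PRMT3-KD libraries, a log2 fold change of 0.76 ± 0.133 (adjusted p = 0.0328, edgeR). KMT2E (chr7:104581390-104755466), a PHD- and SET-domain protein without clear methyltransferase activity, was at 124 and 129 CPM in the Ctrl libraries and 88.3 and 95.2 CPM in the PRMT3-KD libraries, a log2 fold change of -0.46 ± 0.0783 (adjusted p = 0.0310, edgeR). In each of the 3 genes the groups did not overlap. KMT2E lost its call with the replicate block. Exons of KMT2E share positions with SRPK2, KMT2E-AS1 and further annotated genes, and those of KMT2C with FABP5P3. As for KDM2B, reads of such genes cannot be told apart from their own. The PRMT3-KD libraries were closer to each other for SETD7 than for KMT2C. The other 5 genes of this role were not called, from -0.33 for SETD1B to 0.28 for KMT2D on the log2 scale; KMT2A was at 130.1 and 128 CPM in Ctrl and 148 and 149.9 CPM in PRMT3-KD.

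In the PRDM family, whose members are mostly zinc-finger transcription factors, 2 of 9 genes fell, with PRDM2 counted under H3K9 instead. Of all tested genes, 8.91% fell. PRDM16 (chr1:2985732-3355185), a regulator of brown fat and neural stem cells, was at 14.04 and 13.7 CPM in the Ctrl libraries and 6.49 and 7.29 CPM in the PRMT3-KD libraries, a log2 fold change of -1.01 ± 0.129 (SE, adjusted p = 0.0207, edgeR). PRDM15 (chr21:43218385-43299591) was at 18.6 and 18.4 CPM in the Ctrl libraries and 13.5 and 11.9 CPM in the PRMT3-KD libraries, a log2 fold change of -0.54 ± 0.113 (adjusted p = 0.0438, edgeR). The groups did not overlap for either gene. PRDM15 lost its call with library totals in place of TMM (adjusted p = 0.0668, edgeR) and with limma-voom (adjusted p = 0.0602). Its call was also lost with the replicate block. PRDM8 was among the least expressed members, with 60 counts in Ctrl library 1, and its PRMT3-KD libraries lay on both sides of Ctrl.

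SMYD2 (chr1:214454445-214510474), a lysine methyltransferase of histones and p53, was at 46.7 and 47.8 CPM in the Ctrl libraries and 35.7 and 37.4 CPM in the PRMT3-KD libraries, a log2 fold change of -0.37 ± 0.0805 (SE, adjusted p = 0.0471, edgeR). Its call was lost under 5 of the 8 alternatives that kept all libraries. SMYD5 was at 35.2 and 33.2 CPM in Ctrl and 56.2 and 39.8 CPM in PRMT3-KD, a log2 fold change of 0.49 (adjusted p = 0.138, edgeR), with most of the difference in PRMT3-KD library 1. Besides PRC2 core and the KDM3 and KDM4 groups, the roles without any gene called by edgeR were the H3K36 methyltransferases (3 genes), DOT1L for H3K79 (1 gene), the H4K20 methyltransferases (3 genes) and the other SETD proteins (5 genes). Of these 12 genes, 1 had an unadjusted p under 0.05, and 0 were called by DESeq2 or limma-voom, beside the shares over all genes given with KDM3 and KDM4. Their log2 fold changes ran from -0.51 for SETD9 to 0.19 for SETD3. SETD2, which trimethylates H3K36, was at 168 and 167 CPM in Ctrl and 167 and 188 CPM in PRMT3-KD, DOT1L at 115 and 117 CPM in Ctrl and 131 and 117 CPM in PRMT3-KD and KMT5A, which monomethylates H4K20, at 82.7 and 87.4 CPM in Ctrl and 90.3 and 73.7 CPM in PRMT3-KD.

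**Figure D3:**
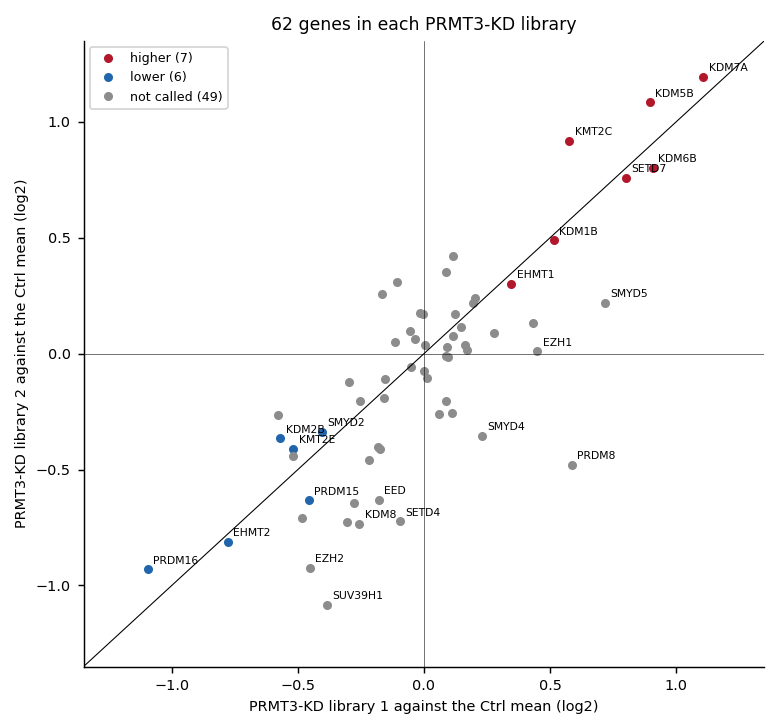
Log2 level of 62 of the 63 genes in PRMT3-KD library 1 (x axis) and library 2 (y axis) against the Ctrl mean, with the line of equality and called genes in colour. Most of the 13 called genes lie near the line, with KMT2C the farthest above it, while EZH2, SUV39H1, EED and PRDM8 lie below it.

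The share of 1 paralog within its family was also computed in each library. KDM5B made up 15.6% ± 0.191 of the summed level per kb of KDM5A, KDM5B and KDM5C in Ctrl and 23.9% ± 0.902 in PRMT3-KD (SD, n = 2 each, as for the values that follow). KDM7A made up 9.003% ± 0.103 and 20.8% ± 0.537 of KDM7A, PHF2 and PHF8. KDM6B made up 48.7% ± 1.56 and 60.8% ± 1.76 of KDM6A and KDM6B. In each of these families the groups did not overlap. KDM1B made up 17.4% ± 0.0502 and 22.7% ± 0.496 of the LSD pair, KMT2C 55.9% ± 0.128 and 63.9% ± 0.434 of KMT2C and KMT2D, and KDM2B 45.0% ± 0.0856 and 35.6% ± 2.79 of KDM2A and KDM2B. Only the share of SUV39H1 within SUV39H1 and SUV39H2 overlapped between groups among the 9 families computed, at 74.4% ± 1.84 in Ctrl and 72.4% ± 4.62 in PRMT3-KD. Most of these families were chosen around a gene already called here, which makes separate groups likely in advance. For single genes, the groups did not overlap in 67.1% of all tested genes. A share depends on both genes, and no test was run on it.

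**Figure D4:**
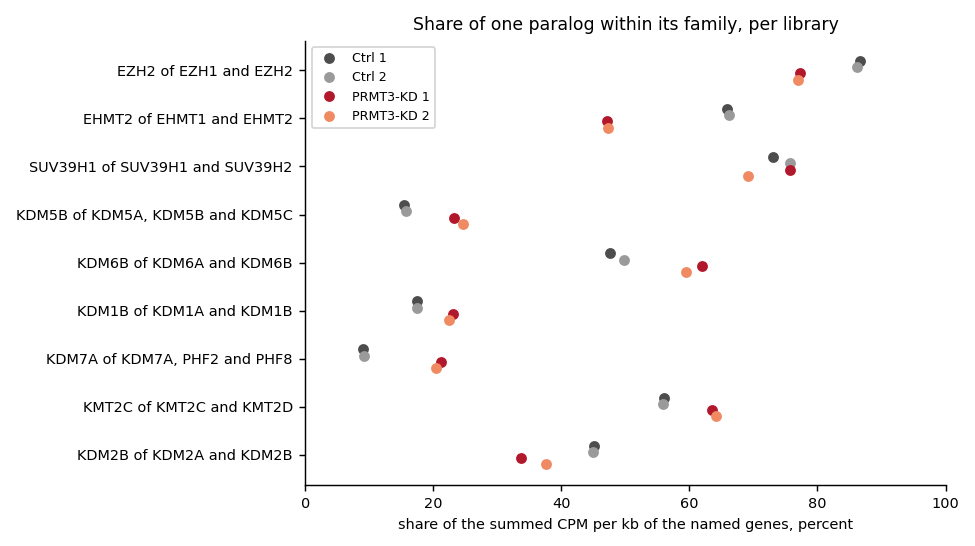
Share of 1 paralog in the summed CPM per kb of its family (percent, x axis), with 1 point per library. The EHMT2 points lie at 65.9% and 66.1% in Ctrl and 47.1% and 47.3% in PRMT3-KD.

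In Ctrl, the order of levels per kb began with KDM1A (51.1 ± 1.60 CPM per kb), EZH2 (43.4 ± 0.539), KMT5A (30.6 ± 1.21), SMYD2 (27.1 ± 0.433) and EHMT2 (23.9 ± 0.490), each SD with n = 2. It ended with KDM4D (0.749 ± 0.0386), PRDM8 (0.677 ± 0.0211) and PRDM6 (0.319 ± 0.00676). Neighbours among these differed by more than their SD. The called genes were spread through this order, from SMYD2, the 4th, to KDM7A, the 56th of 63.

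The 7 bases CAGCTCA were singled out in an earlier scan of 3′ UTRs in these same data, so their frequency is not independent evidence. They were present in the 3′ UTR of 3 of the 6 members that fell (EHMT2, KMT2E and PRDM15), of none of the 7 that rose, and of 7 of the 50 that were not called. Among all 12748 tested genes with an annotated 3′ UTR, the share was 17.4%, with 30.9% of those called lower and 10.5% of those called higher. The 3 sites are shown with 11 bases on either side and the 7 bases in capitals, read on the strand of the gene from GRCh37, at chr6:31847805-31847833 (minus strand) for EHMT2, chr7:104755241-104755269 (plus strand) for KMT2E and chr21:43220717-43220745 (minus strand) for PRDM15.
EHMT2: atggatggccaCAGCTCAgccgcctcctc
KMT2E: gtacattaacgCAGCTCActtagggctca
PRDM15: gtcactgactcCAGCTCAaaacgcatctt

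Whether the site bears on these levels was not tested. The median 3′ UTR length was 1439 bases in the members that fell and 1907 bases in those that rose, against 1309 bases in all genes called lower, 1836 bases in all called higher and 1378 bases over all.

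The complexes these enzymes work in were described from lists of their partners, to be read beside the 8.39% of all tested genes that rose and the 8.91% that fell. Among PRC2 accessory subunits, 1 of 7 rose and 1 fell. MTF2, a polycomb-like subunit that recruits PRC2 to CpG islands, was at 31.1 and 30.7 CPM in Ctrl and 58.3 and 49.4 CPM in PRMT3-KD, a log2 fold change of 0.80 (adjusted p = 0.0227, edgeR). Its relative PHF19 was at 128 and 129 CPM in Ctrl and 65.5 and 46.9 CPM in PRMT3-KD, a log2 fold change of -1.19 (adjusted p = 0.0246, edgeR). Groups did not overlap for either. In PRC1, the H2A ubiquitin ligase complex, 2 of 21 rose and 4 fell: CBX6 rose (1.04, adjusted p = 0.0140), while PHC1 fell (-1.41, adjusted p = 0.0142), as did CBX2 (-0.60, adjusted p = 0.0338), with log2 fold changes and edgeR p-values. PHC1, a polyhomeotic subunit, was at 32.4 and 32.5 CPM in Ctrl and 11.6 and 12.8 CPM in PRMT3-KD.

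Of 12 COMPASS subunits and partners, 3 fell (MEN1, PSIP1 and WDR82) and none rose, with a median log2 fold change of -0.32. The call of WDR82 lay close to the threshold (adjusted p = 0.0492, edgeR). WDR5, RBBP5, ASH2L and DPY30 were not called, with log2 fold changes of -0.37, -0.04, 0.03 and 0.38. MEN1 (menin), which tethers KMT2A and KMT2B, was at 38.8 and 37.9 CPM in Ctrl and 23.3 and 22.0 CPM in PRMT3-KD, a log2 fold change of -0.76 (adjusted p = 0.0192, edgeR). Of 12 HP1 and H3K9me3 partners 4 fell and none rose (median -0.17). CBX3, an HP1 protein, was at 269 and 269 CPM in Ctrl and 139.8 and 160.5 CPM in PRMT3-KD, a log2 fold change of -0.84 (adjusted p = 0.0191, edgeR). TRIM28, the corepressor of KRAB zinc-finger proteins, was at 485 and 486 CPM in Ctrl and 329 and 282 CPM in PRMT3-KD (log2 -0.67, adjusted p = 0.0252), and UHRF1, a reader of H3K9 methylation and hemimethylated DNA, at 232 and 230.0 CPM in Ctrl and 120.0 and 76.6 CPM in PRMT3-KD (log2 -1.23, adjusted p = 0.0357). UHRF1 is also a gene of the S phase, and division markers were lower in the same libraries, as given above.

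Of 13 CoREST partners of KDM1A, 2 rose and 1 fell (median -0.01). ZMYM2 and RREB1 were the genes that rose, by log2 values of 0.79 for the first (edgeR, adjusted p = 0.0283) and 0.82 for the second (adjusted p = 0.0310). HMG20B was at 132 and 132 CPM in Ctrl and 67.7 and 87.3 CPM in PRMT3-KD, a log2 fold change of -0.76 (adjusted p = 0.0355, edgeR). Exons of HMG20B share positions with MFSD12. Among the partners named above, those of CBX3, PHC1, PSIP1 and WDR82 overlap HNRNPA2B1, M6PR, SNAPC3 and GLYCTK, in that order. Counting by strand is not stated, so reads of such genes cannot be told apart from their own. The catalytic partners HDAC1 and HDAC2 were not called.

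**Figure D5:**
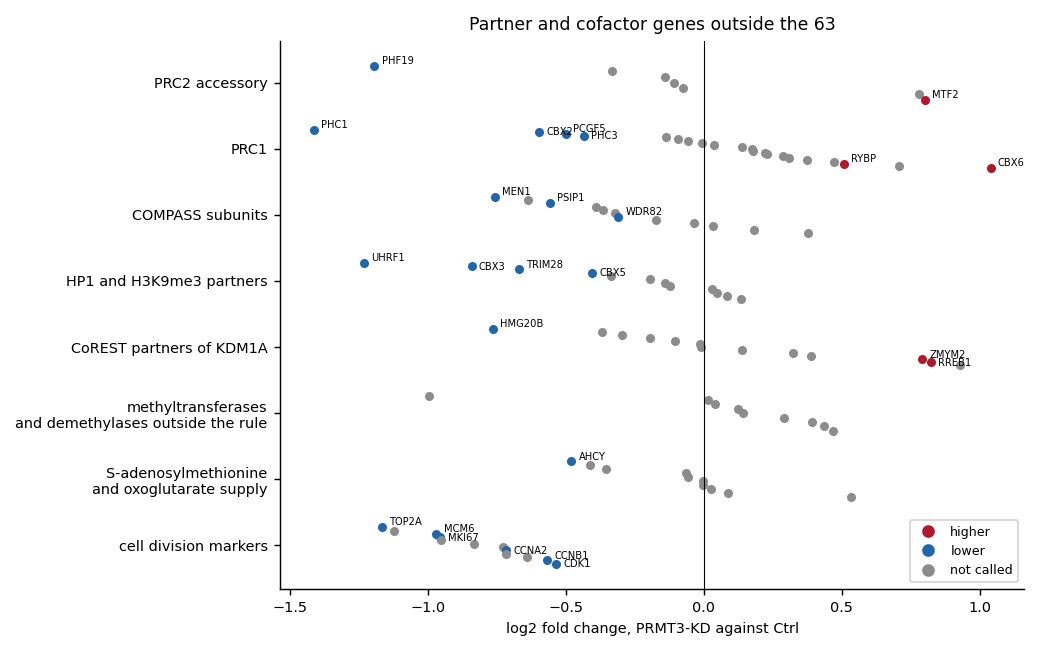
Log2 fold change in PRMT3-KD against Ctrl for partner, cofactor and division genes outside the 63, 1 point per gene, with called genes in red (higher) or blue (lower) and named. No gene of the COMPASS, HP1 or division lists was called higher.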

How the data were processed

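Total RNA of 4 U251 libraries was sequenced. Per the labels and the methods, the authors aligned reads to hg19 with TopHat and made unnormalized gene counts with Cufflinks. The deposited table holds raw counts per gene. The submitters' processing notes also name CASAVA and DESeq2; versions and strand setting are not given in the sources used here. Of 15576 rows, 1 duplicate was dropped. Genes passing filterByExpr (minimum count 10, minimum total 15) were tested with edgeR 4.0.16 (R 4.3.3; TMM, glmQLFit, glmQLFTest, Benjamini-Hochberg over 13172 genes). DESeq2 1.42.0, limma-voom 3.58.1, other scalings, filters, a replicate block and leaving out each library were alternatives. Scripts were tested on simulated data. The family members, roles, partner and marker lists were chosen with earlier results of these data known. Named genes were all called members, PRC2 core, members over 1.5-fold, partner genes called over 1.5-fold, PRMT3 and HIF1A; KDM3A, KDM4B, KDM4C, KDM5A, KDM5C, KDM6A, PHF2 and other uncalled paralogs were added after their values were seen. Levels per kb use the canonical transcript length of GENCODE 44 in place of the planned union exon length, which sums the exons of every annotated isoform. Of the genes this rule names, 1 is not reported here, nor is 1 marker gene; both stay in the counts.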

Additional observations from a re-analysis of the deposited data

How the results depend on the processing

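The 13 called members were 13 with DESeq2 (11 of them shared), 12 with DESeq2 size factors or upper-quartile factors, 10 with library totals or a filter of at least 1 count, 13 with at least 10 counts in every library and 12 with limma-voom. Requiring over 1.5-fold as well left 7. With the replicate number as a block, 9 were called, 8 of them shared, and 3 rather than 6 were lower; EHMT1, KDM2B, KMT2E, PRDM15 and SMYD2 were lost and EZH2 was gained. The labels give only a number, and deviations of same-numbered libraries correlated at 0.058 across genes, so no pairing was taken from it. Leaving out each library gave 0 to 43 called members, 0 to 20 higher and 0 to 25 lower, and the lone library left in a group was assumed to vary like the other group. The PRMT3 log2 fold change then ran from -3.61 to -2.68, with adjusted p = 0.0764 and 0.0604 without Ctrl library 1 and 2 (edgeR). In at least 1 alternative the direction turned for 16 of the 63 members. None of them was called, but the groups of the called members did not overlap, so their direction could hardly turn. Among the 16 whose fold change is given above were SUZ12 (-0.0098 without PRMT3-KD library 1, 0.0825 without library 2) and KDM4B (0.309 and -0.110). The median log2 fold change of the members stayed between -0.0570 and -0.0059. The 2 libraries per group limit the precision, and the PRMT3-KD pair had the wider spread (biological coefficient of variation 0.204, against 0.0107 in Ctrl).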

Other observations

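A list of 9 tested genes outside the symbol rule held further SET-domain, JmjC and lysine methyltransferase genes such as ASH1L and JMJD1C and the methyl-lysine reader PHF20, but not NSD2 or NSD3. None of the 9 was called by edgeR, 4 had an unadjusted p under 0.05, and DESeq2 and limma-voom each called 1. Over all tested genes, edgeR, DESeq2 and limma-voom called 17.3%, 21.2% and 21.7%. The table lists WHSC1 and WHSC1L1 under their newer symbols NSD2 and NSD3, so these H3K36 methyltransferases are not among the 63 (chosen after their values were seen). NSD2 was at 458 and 455 CPM in Ctrl and 392 and 381 CPM in PRMT3-KD, a log2 fold change of -0.24 (adjusted p = 0.0759, edgeR). NSD3 was at 88.8 and 89.8 CPM in Ctrl and 76.7 and 88.6 CPM in PRMT3-KD (-0.11, adjusted p = 0.457).

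Among 10 genes of S-adenosylmethionine and oxoglutarate supply, AHCY, which clears the S-adenosylhomocysteine left by methylation, fell from 146 and 149 CPM in Ctrl to 110.0 and 102 CPM in PRMT3-KD (log2 fold change -0.48, adjusted p = 0.0288, edgeR), and none rose. Of all tested genes, 8.91% fell and 8.39% rose. MAT2A, which makes S-adenosylmethionine, was at 231 and 239 CPM in Ctrl and 245 and 224 CPM in PRMT3-KD. KRT18, an epithelial keratin checked as a marker, was called higher (1.37, adjusted p = 0.0192, edgeR), and the endothelial gene CDH5 was at 5.05 and 5.31 CPM in Ctrl and 5.08 and 25.4 CPM in PRMT3-KD. Their part in the results above was not tested.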
